A study of Homo sapiens with 8 samples.

Results

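The genes described here are 7 receptors of blood cell growth factors: KIT, CSF1R, FLT3, CSF2RB, CSF3R, IL3RA and IL6R. They were taken by name from a table of 33045 gene names, with no cut on their values but with earlier results of these data known. All 7 were among the 16060 genes that passed the filter on low counts. The table came from RNA sequencing of a pair of human acute myeloid leukemia lines grown in flasks and exposed to vehicle or to DDP38003 at 0.5 µM (LSD1i below), which inhibits LSD1, a histone demethylase. KASUMI-1, labelled as sensitive, carries the RUNX1::RUNX1T1 fusion, and its RNA was taken at 6 and 72 h. The line labelled as resistant, THP-1, is a monocytic line with a KMT2A fusion and was sampled at 24 and 72 h. A single library was made per line, agent and time, 8 in all, which gives 2 pairs of an LSD1i and a vehicle library in either line, and the lines share only the 72 h time. Whether the libraries came from separate cultures is not labelled, and the p-values then measure no more than the spread among these libraries, which may be technical. KASUMI-1 is also known for an activating KIT mutation, which counts per gene do not show.

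Blood cells live, divide and mature under the control of secreted growth factors that are read by 2 classes of receptor. KIT (receptor of stem cell factor), FLT3 (receptor of FLT3 ligand) and CSF1R (receptor of M-CSF and interleukin-34) carry their own tyrosine kinase. The others belong to the cytokine receptor class and work through JAK kinases and STAT factors: CSF3R binds G-CSF, IL3RA is the interleukin-3 binding chain, IL6R is the interleukin-6 binding chain, and CSF2RB is the signalling chain that the receptors of GM-CSF, interleukin-3 and interleukin-5 share. KIT is known from blood progenitors and mast cells and FLT3 from progenitors, while CSF1R marks monocytes and macrophages, and CSF3R marks the granulocyte branch.

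Reads counted per library ranged from 23722972 to 45970766, and 3 reads, the limit that a count of 0 allows, came to at most 0.134 CPM (reads per 1000000 counted, with libraries scaled by TMM). KDM1A, the gene of the inhibited enzyme, was at 93.5 to 264 CPM, and its transcript passed no test under LSD1i (adjusted p = 0.419 in KASUMI-1 and 0.831 in THP-1, edgeR). The lines were told apart by RUNX1T1, at 76.2 to 106 CPM in KASUMI-1 and 0.119 to 0.201 in THP-1, and by HOXA9, at 0.919 to 1.51 and 53.2 to 56.3 CPM. No exon of a member shared a base with another gene model of the table, although small RNA genes are nested in introns of KIT, CSF1R and FLT3. IL3RA lies in the region that X and Y share, and the table places it on X alone. Reads that also map to Y would have been left out, so its level can be too low.

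RefSeq promoter windows on GRCh38.p14 were found for 6 of the 7 members, and the 250 bases before the start are shown for the 2 genes with the largest responses, KIT and CSF1R, and for CSF2RA, the GM-CSF binding partner of CSF2RB. Capitals mark letters searched on both strands for factors of myeloid genes: TGTGGT for RUNX, AGGAAG for ETS factors and PU.1, TTGCGC and TTGCAA for C/EBP, AGATAA for GATA factors and AAATCAC for GFI1. The CSF1R start nearer the coding region, known as the one that myeloid cells use, had its window at chr5:150086555-150086804 (minus strand), with TGTGGT at position -71 and AGGAAG at -19 from the start. The other CSF1R start, known from placental trophoblast, had its window at chr5:150113366-150113615 (minus strand) and held none of the letters. The KIT window, chr4:54657707-54657956 (plus strand), was 76.4% G and C and also held none. The CSF2RA window, chrX:1268564-1268813 (plus strand), held AGGAAG at -62.
CSF1R, myeloid start: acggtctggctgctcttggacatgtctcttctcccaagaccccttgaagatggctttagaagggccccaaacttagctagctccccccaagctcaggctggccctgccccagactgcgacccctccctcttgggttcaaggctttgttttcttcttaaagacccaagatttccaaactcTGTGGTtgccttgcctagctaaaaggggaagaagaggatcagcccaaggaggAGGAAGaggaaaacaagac
CSF1R, upstream start: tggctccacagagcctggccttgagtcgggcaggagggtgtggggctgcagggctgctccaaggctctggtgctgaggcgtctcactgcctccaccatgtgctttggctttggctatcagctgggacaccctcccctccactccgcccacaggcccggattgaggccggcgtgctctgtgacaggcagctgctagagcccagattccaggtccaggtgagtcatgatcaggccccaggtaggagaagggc
KIT: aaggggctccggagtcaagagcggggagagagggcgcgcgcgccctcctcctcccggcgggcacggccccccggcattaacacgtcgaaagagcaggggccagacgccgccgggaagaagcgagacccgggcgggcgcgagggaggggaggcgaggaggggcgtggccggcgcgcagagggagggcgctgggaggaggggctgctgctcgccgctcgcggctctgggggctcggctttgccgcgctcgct
CSF2RA: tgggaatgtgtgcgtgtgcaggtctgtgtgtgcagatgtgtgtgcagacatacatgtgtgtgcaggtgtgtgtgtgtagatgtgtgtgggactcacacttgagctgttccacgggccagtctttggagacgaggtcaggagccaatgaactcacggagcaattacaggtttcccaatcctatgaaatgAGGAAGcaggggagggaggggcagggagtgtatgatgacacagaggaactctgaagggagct
Of 35092 windows of this length, 3851 held TGTGGT and 10078 (28.7%) held AGGAAG on either strand. Among members whose windows are not printed, that of IL6R and the CSF3R window at chr1:36482914-36483163 each held AGGAAG and TTGCGC. This CSF3R window also held TTGCAA. Of all windows, 6.35% held TTGCGC and 4.73% TTGCAA. The other CSF3R window, chr1:36483315-36483564, and those of FLT3 and IL3RA held none of the letters. A match is a description of letters and not a binding site.

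The first comparison asked which receptors the lines carry without inhibitor. KIT and CSF3R were the receptors higher in KASUMI-1, and IL6R, CSF1R, FLT3 and CSF2RB were those higher in THP-1. KIT (NCBI36 chr4:55218852-55301636, plus strand) stood at 506 and 709 CPM in the KASUMI-1 vehicle libraries at 6 and 72 h and at 8.07 and 14.7 CPM in those of THP-1 at 24 and 72 h. CSF3R (chr1:36704231-36721466, minus strand) stood at 428 and 539 CPM against 68.7 and 101 CPM. Both genes were higher in each KASUMI-1 vehicle library than in either THP-1 one, by 5.74 ± 0.32 (SE) on the log2 scale for KIT (adjusted p = 1.73e-07, edgeR's quasi-likelihood test) and by 2.50 ± 0.22 for CSF3R (adjusted p = 4.60e-06). IL6R (chr1:152644293-152706812, plus strand) had the opposite pattern, with 5.04 and 3.29 CPM in KASUMI-1 and 265 and 292 CPM in THP-1, a difference of -6.04 ± 0.25 (adjusted p = 2.69e-08).

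CSF1R (chr5:149413051-149473128, minus strand) was at 5.80 and 3.87 CPM in the KASUMI-1 vehicle libraries and at 30.6 and 39.1 CPM in those of THP-1. FLT3 (chr13:27475411-27572729, minus strand) was at 8.84 and 12.2 against 69.8 and 68.1 CPM, and CSF2RB (chr22:35639616-35666437, plus strand) at 4.17 and 4.76 against 16.3 and 19.3 CPM. These 3 were lower in each KASUMI-1 vehicle library than in either THP-1 one, by -2.83 ± 0.25, -2.73 ± 0.20 and -2.00 ± 0.22 (edgeR adjusted p = 4.67e-06, 1.55e-06 and 2.79e-05). IL3RA (chrX:1415509-1461581, plus strand) had overlapping values, 11.3 and 6.94 CPM in KASUMI-1 and 9.86 and 13.2 CPM in THP-1, and its difference of -0.33 ± 0.27 passed no test (adjusted p = 0.323, edgeR). Without the KASUMI-1 6 h vehicle library, which leaves a single KASUMI-1 library, the difference was -0.73. In all, 6 of 7 members differed between the lines, 2 of them higher in KASUMI-1 and 4 higher in THP-1. Of the 15456 genes tested in the vehicle libraries 56.5% differed, 26.4% higher in KASUMI-1 and 30.1% higher in THP-1, so a difference between these lines was common among all genes. The sampling times differ between the lines apart from 72 h, and there KIT was at 709 against 14.7 CPM and IL6R at 3.29 against 292 CPM.

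**Figure D1:**
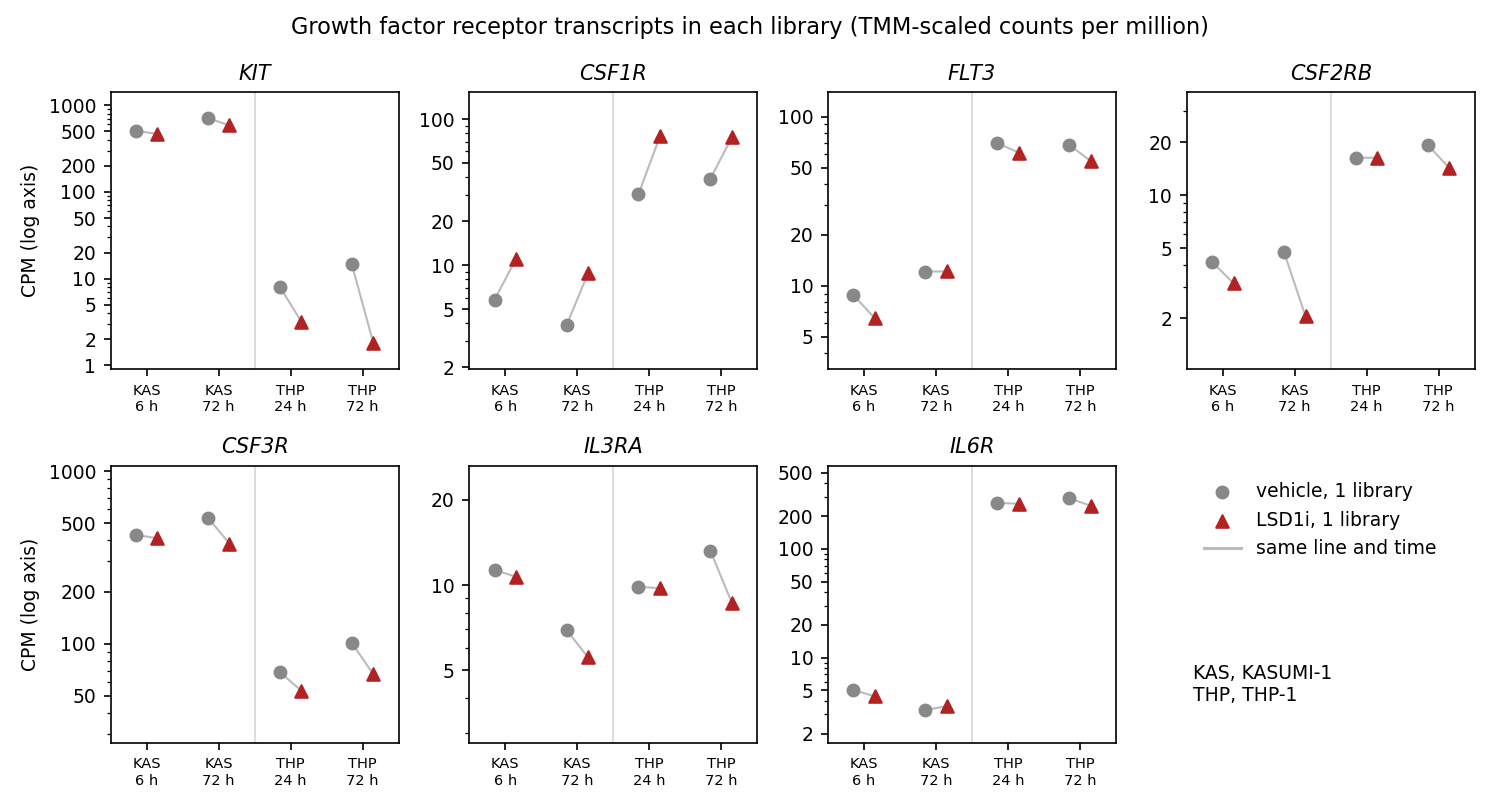
TMM-scaled CPM (log axis, a separate range in each panel) of the 7 receptor genes in the 8 libraries, grey circles for vehicle and red triangles for LSD1i, with a line joining libraries of the same line and time. KIT and CSF3R sit higher in KASUMI-1 and IL6R, FLT3, CSF1R and CSF2RB in THP-1, and CSF1R is the 1 member whose triangle lies above its circle in all 4 pairs.

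Levels of different receptors were compared per exon length, as RPKM, the CPM divided by the exon length in kilobases. In the KASUMI-1 vehicle libraries CSF3R (124 and 156 RPKM) and KIT (97.8 and 137) overlapped at the top and lay far above IL3RA (6.62 and 4.06) and FLT3 (2.29 and 3.15). CSF1R, IL6R and CSF2RB followed between 0.789 and 1.45 RPKM with overlapping ranges. The THP-1 order began with IL6R (63.4 and 69.9 RPKM), then CSF3R (19.9 and 29.3) and FLT3 (18.1 and 17.7), and none of these 3 overlapped its neighbour. CSF1R (7.66 and 9.77) overlapped IL3RA (5.77 and 7.73), CSF2RB was at 3.33 and 3.95, and KIT was last at 1.56 and 2.84 RPKM.

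Under LSD1i CSF1R stood higher in the THP-1 order. It reached 19.1 RPKM at 24 h, second to IL6R (62.2), and 18.9 at 72 h, the third after IL6R (59.6) and CSF3R (19.3). In the vehicle libraries it had been the fourth, below FLT3. CSF3R, at 15.5 RPKM at 24 h, overlapped both CSF1R and FLT3 (15.9 and 14.1) under LSD1i. KIT stayed last, at 0.618 and 0.349 RPKM. In KASUMI-1 CSF3R and KIT stayed at the top, with 110 to 118 and 90.3 to 113 RPKM, and CSF1R, at 2.77 and 2.20, overlapped FLT3 at 1.67 and 3.15.

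**Figure D2:**
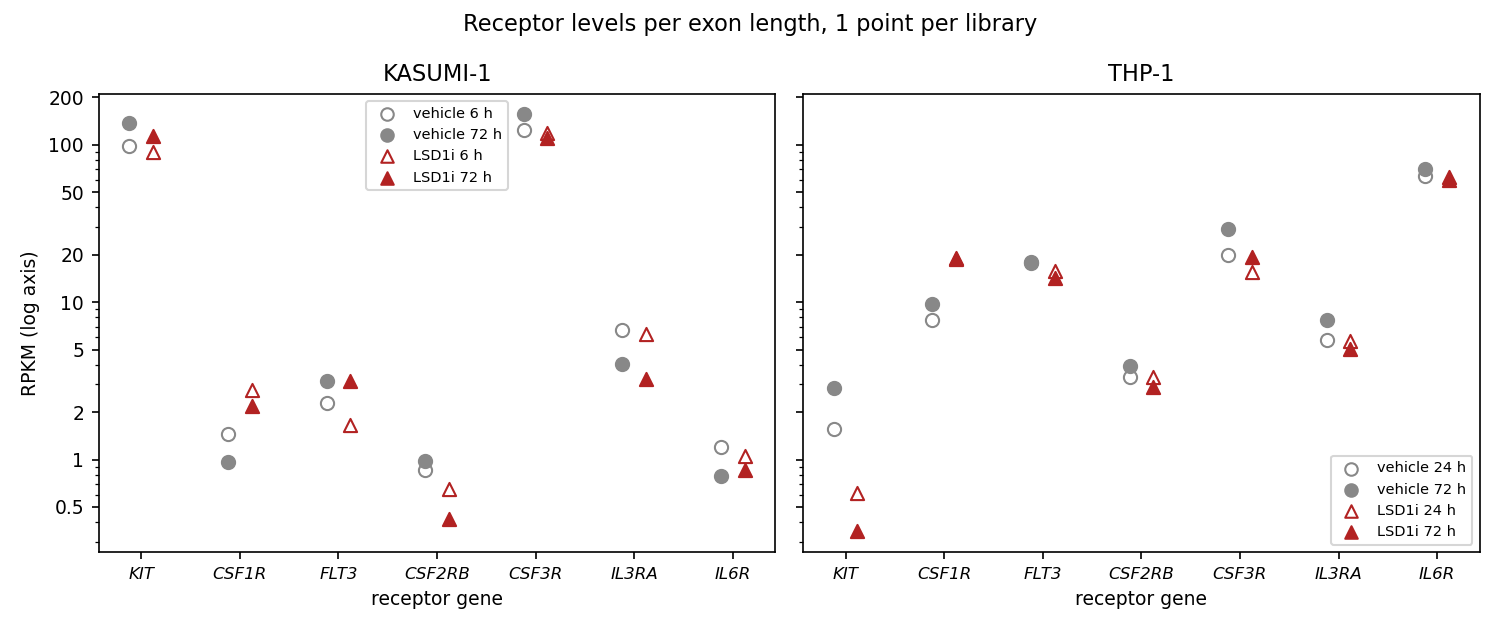
RPKM (log axis) of the receptor genes in KASUMI-1 (left) and THP-1 (right), 1 point per library, circles for vehicle and triangles for LSD1i, open at the early time and filled at 72 h. KIT and CSF3R lead in KASUMI-1 and IL6R leads in THP-1, where CSF1R rises to the level of CSF3R under LSD1i and KIT is lowest.

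These transcripts also differed between the early and late vehicle libraries. With 1 vehicle library per time, culture time cannot be told apart from other differences between libraries, and no test was run. From 24 to 72 h in THP-1 vehicle cells the log2 ratio of KIT was 0.86 (95% counting interval 0.68 to 1.05), and from 6 to 72 h in KASUMI-1 it was 0.49 (0.46 to 0.52). CSF3R was higher at the later time in both lines as well, by 0.56 (0.50 to 0.63) in THP-1 and 0.33 (0.30 to 0.37) in KASUMI-1. CSF1R, IL3RA and IL6R were lower at 72 h than at 6 h in KASUMI-1, with log2 ratios of -0.58, -0.70 and -0.61, and higher at 72 h than at 24 h in THP-1, with 0.35, 0.42 and 0.14. These intervals cover counting error only, here and below, since copies of a molecule made by PCR cannot be recognised in these counts.

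The main comparison asked which receptors LSD1i changed in each line. KIT fell in THP-1, the line with little of it, and CSF1R rose in both lines. In THP-1 the vehicle and LSD1i libraries held 384 and 143 reads of KIT at 24 h, or 8.07 and 3.20 CPM, and 619 and 64 reads at 72 h, or 14.7 and 1.81 CPM. Both LSD1i libraries lay below both vehicle libraries. The log2 ratio was -1.32 (95% counting interval -1.62 to -1.06) at 24 h and -2.99 (-3.42 to -2.65) at 72 h, so the ratio was further from 0 at the later time by -1.67, with no test of that change. The fitted change was -2.11 ± 0.26 (adjusted p = 1.78e-05, edgeR). Leaving out the 72 h pair gave -1.35, and leaving out the 24 h pair gave -3.04. Either fit holds a single THP-1 pair, so its test has no spread from within THP-1 and borrows that of KASUMI-1. The same holds below wherever a pair of a tested line is left out, so such calls measure no spread within that line.

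In KASUMI-1 KIT stood at 506 and 467 CPM at 6 h and at 709 and 585 CPM at 72 h, vehicle first. Each LSD1i library was a little below its own vehicle library, with log2 ratios of -0.12 (-0.14 to -0.09) and -0.28 (-0.31 to -0.25), while the groups overlapped, since the 6 h vehicle library lay below the 72 h LSD1i library. The 6 h ratio came to -0.0052 when libraries were scaled by their totals alone. The fitted change of -0.20 ± 0.20 passed no test (adjusted p = 0.585, edgeR). KIT responded differently in the lines, by -1.91 ± 0.33 for THP-1 minus KASUMI-1 (adjusted p = 0.00262, edgeR). It was 1 of 7 members called in that contrast, in which 5.69% of all genes were called. The call ended without the THP-1 72 h pair (-1.14, adjusted p = 0.0925), with DESeq2 (-1.95, adjusted p = 0.109) and in a fit without the pair terms (-1.96, adjusted p = 0.157). Fewer cells with KIT and less KIT RNA per cell cannot be told apart in such bulk libraries, and the same holds for each receptor below.

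CSF1R was at 5.80 and 3.87 CPM in the KASUMI-1 vehicle libraries and at 11.1 and 8.82 CPM in the LSD1i libraries of 6 and 72 h. In THP-1 it went from 30.6 to 76.5 CPM at 24 h and from 39.1 to 75.5 CPM at 72 h. In each line both LSD1i libraries lay above both vehicle libraries. The log2 ratios were 0.93 (0.70 to 1.17), 1.18 (0.85 to 1.54), 1.32 (1.23 to 1.41) and 0.95 (0.86 to 1.04) in the order of KASUMI-1 6 and 72 h and THP-1 24 and 72 h. The fitted rise was 1.04 ± 0.16 in KASUMI-1 (adjusted p = 0.000759, edgeR) and 1.14 ± 0.14 in THP-1 (adjusted p = 1.99e-05), from vehicle levels that were far apart. The difference between the lines was 0.09 ± 0.22 (adjusted p = 0.863), within 1 SE of 0. In a fit without the pair terms the KASUMI-1 rise was 1.02 with adjusted p = 0.0840.

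FLT3 passed no test in either line. It was at 8.84 and 12.2 CPM in vehicle and 6.44 and 12.2 CPM in LSD1i libraries of KASUMI-1 (-0.22 ± 0.15, adjusted p = 0.383, edgeR). In THP-1 the values were 69.8 and 68.1 CPM in vehicle and 61.2 and 54.6 CPM with LSD1i, both below both vehicle libraries (-0.25 ± 0.14, adjusted p = 0.323). Its log2 ratio was between -0.46 (KASUMI-1 6 h) and 0.0032 (KASUMI-1 72 h) over the 4 pairs, so the pairs of KASUMI-1 lay farther apart than those of THP-1, at -0.19 and -0.32.

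CSF3R, the G-CSF receptor, fell in THP-1, from 68.7 to 53.6 CPM at 24 h and from 101 to 66.8 CPM at 72 h. The fall was -0.48 ± 0.14 (adjusted p = 0.0371, edgeR), and it was lost without the 24 h pair (-0.62, adjusted p = 0.191) or the 72 h pair (-0.37, adjusted p = 0.715), and in a fit without the pair terms (-0.50, adjusted p = 0.354). In KASUMI-1 CSF3R was at 428 and 409 CPM at 6 h and at 539 and 381 CPM at 72 h, so the LSD1i libraries lay below both vehicle libraries but close to them at 6 h. That change, -0.28 ± 0.14, passed no test (adjusted p = 0.197), and it was called without the 6 h pair (-0.50, adjusted p = 0.0390).

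CSF2RB, the shared signalling chain, fell in KASUMI-1, from 4.17 to 3.15 CPM (159 and 124 reads) at 6 h and from 4.76 to 2.05 CPM (107 and 84 reads) at 72 h. Both LSD1i libraries were below both vehicle libraries, and the log2 ratio was -0.40 (-0.75 to -0.06) at 6 h and -1.20 (-1.65 to -0.79) at 72 h. The fitted fall of -0.78 ± 0.22 (adjusted p = 0.0288, edgeR) was not called without the KASUMI-1 72 h pair (-0.41, adjusted p = 0.522), without the THP-1 24 h pair (-0.80, adjusted p = 0.0541) or without the pair terms (-0.78, adjusted p = 0.176). In THP-1 CSF2RB stood at 16.3 CPM in both 24 h libraries and at 19.3 and 14.2 CPM at 72 h (-0.22 ± 0.18, adjusted p = 0.591). The difference between the lines, 0.56 ± 0.28, passed no test (adjusted p = 0.264) and was called only without the KASUMI-1 6 h pair (0.997, adjusted p = 0.0235).

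The interleukin binding chains IL3RA and IL6R passed no test under LSD1i. IL3RA was at 11.3 and 10.7 CPM at 6 h and 6.94 and 5.55 CPM at 72 h in KASUMI-1 (-0.19 ± 0.18, adjusted p = 0.555, edgeR), and at 9.86 and 9.75 CPM at 24 h and 13.2 and 8.62 CPM at 72 h in THP-1 (-0.31 ± 0.18, adjusted p = 0.359). Its widest pair was that of THP-1 at 72 h, with a log2 ratio of -0.61 (-0.82 to -0.41). IL6R was at 5.04 and 4.40 CPM at 6 h and 3.29 and 3.58 CPM at 72 h in KASUMI-1 (-0.06 ± 0.17, adjusted p = 0.875), and at 265 and 259.8 CPM at 24 h and 292 and 249 CPM at 72 h in THP-1 (-0.13 ± 0.12, adjusted p = 0.659). IL6R was the highest receptor per length in THP-1 with and without the inhibitor.

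**Figure D3:**
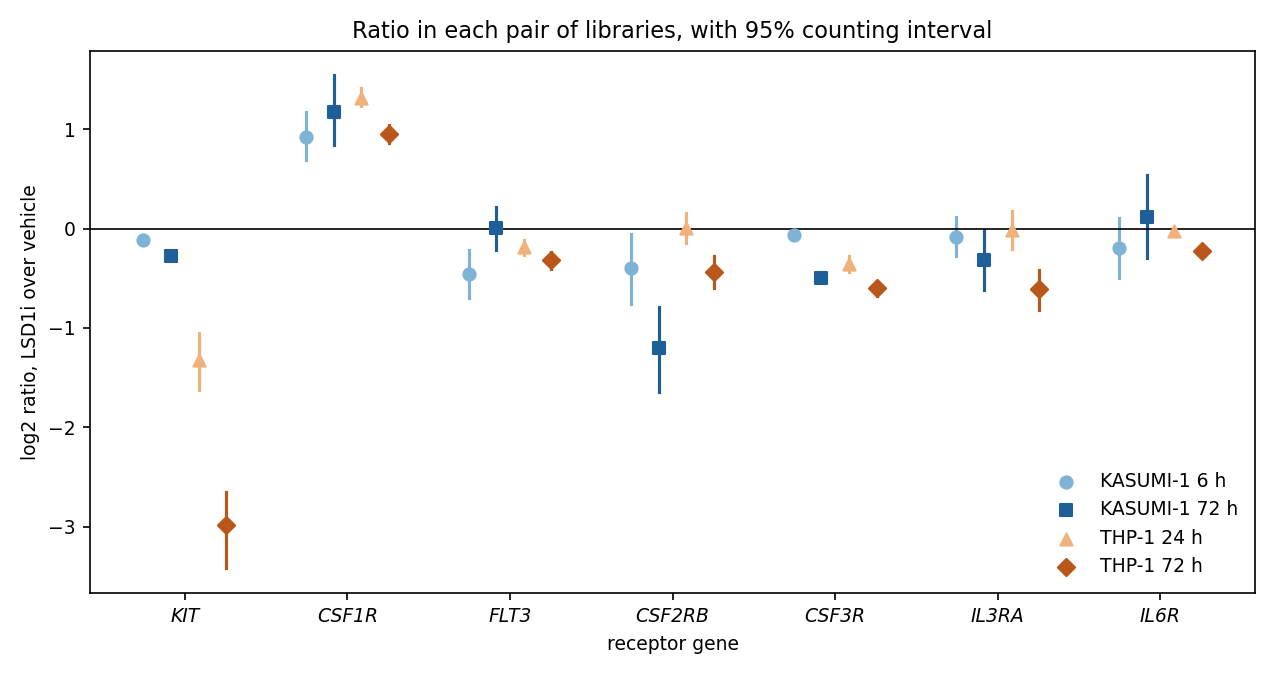
Log2 ratio of LSD1i over vehicle in each of the 4 pairs for the 7 receptor genes, with bars for the 95% counting interval, which for KIT and CSF3R in KASUMI-1 is narrower than the marker. CSF1R lies between 0.93 and 1.32 in all pairs, and KIT lies at -1.32 and -2.99 in the THP-1 pairs.

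Over the members, 2 of 7 were called in KASUMI-1 (CSF1R rose and CSF2RB fell) and 3 of 7 in THP-1 (CSF1R rose, KIT and CSF3R fell). Among all genes 12.1% were called in KASUMI-1 (7.02% rose and 5.09% fell) and 9.36% in THP-1 (6.51% rose and 2.85% fell). Of the calls in KASUMI-1 58.0% were rises, and 44.9% with DESeq2. The median change of the members was -0.20 in KASUMI-1 and -0.25 in THP-1, beside medians of 0.02 and -0.0091 over all genes. In THP-1 5 of 7 members had both LSD1i libraries below both vehicle libraries, beside 22.0% of all genes, and in KASUMI-1 2 of 7, beside 19.9%. CSF1R had them above in both lines, as had 24.4% of all genes in KASUMI-1 and 21.2% in THP-1.

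A fit with a single LSD1i term over the 4 pairs asked which receptors moved alike in both lines. CSF1R was called, with 1.10 ± 0.12 (adjusted p = 4.92e-04, edgeR) and a rise in 4 of 4 pairs, 1 of 7 members beside 4.59% of all genes (3.80% as a rise). KIT (-1.02 ± 0.35, adjusted p = 0.137), CSF3R (-0.38 ± 0.12, adjusted p = 0.113) and IL3RA were lower in 4 of 4 pairs and passed no test. LSD1i was below vehicle in all 4 pairs for 9.95% of all genes and above in all for 12.3%. KIT was called in this fit without the KASUMI-1 72 h pair (-1.31, adjusted p = 0.0197) and without the filter on low counts (-1.01, adjusted p = 1.43e-10), and CSF3R with DESeq2 (-0.40, adjusted p = 0.0461). The 6 h log2 ratio of CSF3R in KASUMI-1, -0.07, changed sign when libraries were scaled by their totals alone (0.042). So did that of IL3RA, at 6.12 RPKM in vehicle and 6.24 with LSD1i under that scaling. That of KIT kept its sign at -0.0052.

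**Figure D4:**
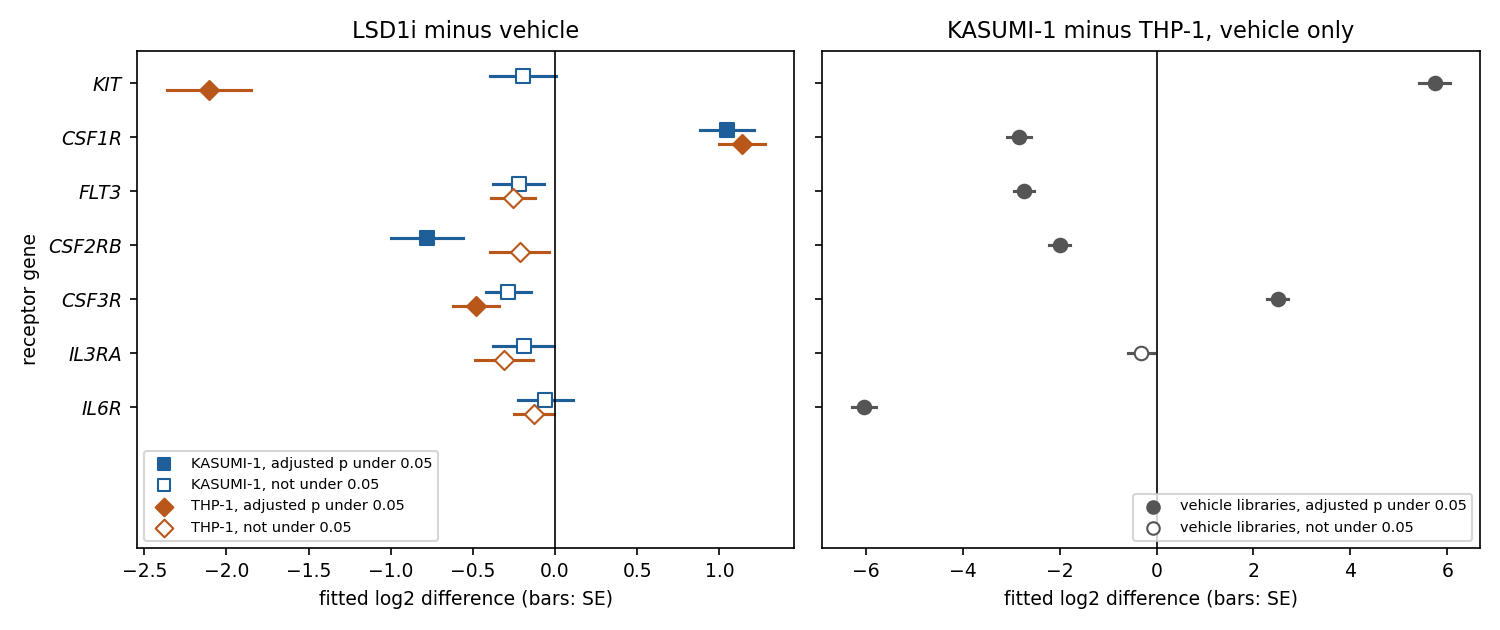
Fitted log2 differences of the receptor genes with bars of 1 SE, LSD1i minus vehicle in each line (left) and KASUMI-1 minus THP-1 in the vehicle libraries (right), filled where the adjusted p is under 0.05. CSF1R is the only member to the right of 0 in the left panel, KIT lies at -2.11 in THP-1, and the right panel runs from -6.04 for IL6R to 5.74 for KIT.

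The partner chains of these receptors were followed next, since the binding chains of GM-CSF and interleukin-6 work only with a signalling chain. CSF2RA, the GM-CSF binding chain, rose in THP-1 from 22.1 to 54.6 CPM at 24 h and from 21.1 to 49.9 CPM at 72 h, by 1.27 ± 0.14 (adjusted p = 5.56e-06, edgeR). In KASUMI-1 it stood at 5.33 and 5.07 CPM in vehicle and 6.03 and 4.80 CPM with LSD1i (0.06 ± 0.16, adjusted p = 0.874). The lines differed in this response by 1.22 ± 0.22 (adjusted p = 0.00335), a call that was lost without the THP-1 24 h pair (1.17, adjusted p = 0.0655) or the pair terms (1.22, adjusted p = 0.115). CSF2RA, too, lies in the region shared by X and Y. Per exon length it was 3.38 and 2.72 times as high as CSF2RB in the THP-1 vehicle libraries and 8.32 and 8.72 times as high with LSD1i, so the binding chain moved and the signalling chain did not pass the test.

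IL6ST (gp130), the signalling chain of the interleukin-6 family, rose in KASUMI-1 from 42.2 to 72.3 CPM at 6 h and from 36.9 to 62.3 CPM at 72 h, by 0.77 ± 0.13 (adjusted p = 0.00121, edgeR; 0.0590 without the pair terms). In THP-1 it was at 39.6 and 46.8 CPM at 24 h and at 35.3 and 49.3 CPM at 72 h (0.36 ± 0.13, adjusted p = 0.0950), and the difference between the lines passed no test (adjusted p = 0.197). The vehicle levels of IL6ST overlapped between the lines, and those of IL6R did not. Per exon length IL6ST was 3.86 to 8.03 times as high as IL6R in the KASUMI-1 libraries and 0.0558 to 0.0913 times as high in those of THP-1. IL5RA, the interleukin-5 binding chain, had 0 reads in each library.

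**Figure D5:**
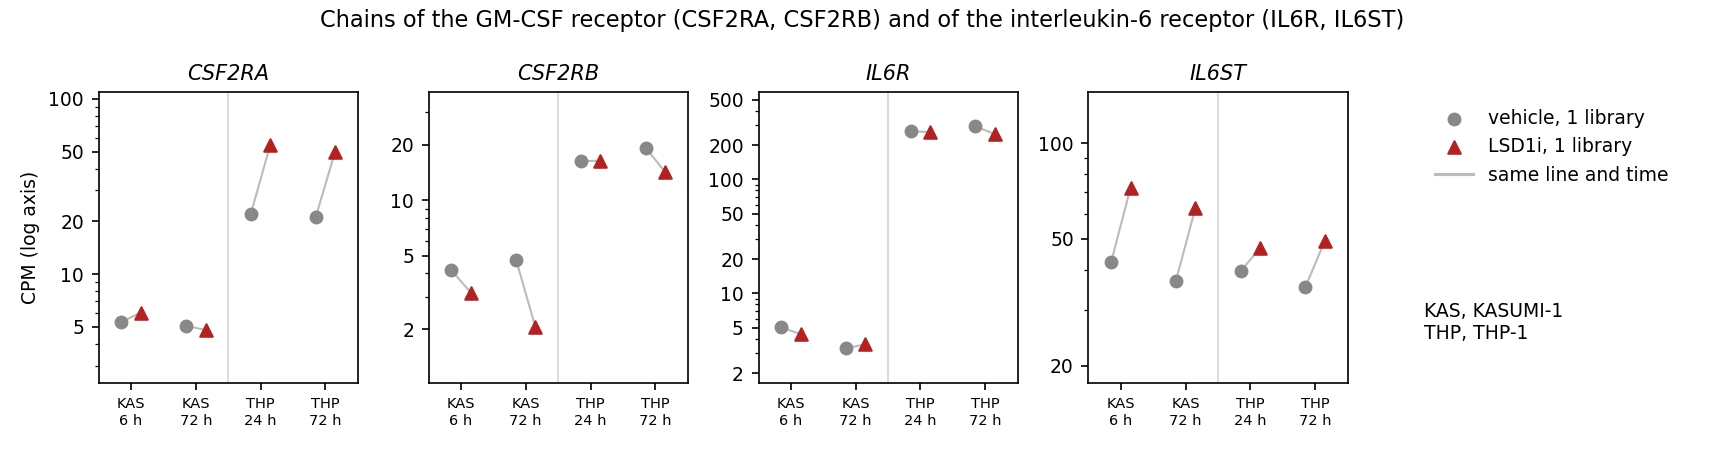
TMM-scaled CPM (log axis, a separate range in each panel) of CSF2RA, CSF2RB, IL6R and IL6ST in the 8 libraries, grey circles for vehicle and red triangles for LSD1i. CSF2RA is 22.1 and 21.1 in the THP-1 vehicle libraries and 54.6 and 49.9 with LSD1i while CSF2RB has no such step, and IL6ST is higher with LSD1i in all 4 pairs.

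Of the 9 ligand genes of these receptors, CSF2 (GM-CSF), IL3, IL5 and IL6 had 0 reads in all 8 libraries, and CSF3 (G-CSF) and IL34 had at most 3 and 2. CSF1 (M-CSF) had 0 to 2 reads in KASUMI-1 libraries and 10, 10, 27 and 2 in THP-1. KITLG, stem cell factor, was the ligand with the most reads. It was at 1.02 to 3.15 CPM in KASUMI-1 and 12.4 to 16.5 CPM in THP-1, lower in KASUMI-1 vehicle libraries by -3.23 ± 0.31 (adjusted p = 1.09e-05, edgeR), the reverse of its receptor KIT. KITLG passed no test under LSD1i (0.53 ± 0.23, adjusted p = 0.140 in KASUMI-1, and -0.05 ± 0.16, adjusted p = 0.927 in THP-1), nor did FLT3LG (adjusted p = 0.963 and 0.593), at 1.09 to 2.71 CPM. The platelet-derived growth factor receptors PDGFRA and PDGFRB, of the same kinase class as KIT, had at most 0.731 and 1.36 CPM, and neither passed a test under LSD1i (adjusted p = 0.602 and 0.650 in KASUMI-1, 0.783 and 0.845 in THP-1).

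Among 27 tested genes of 28 other cytokine and chemokine receptors, 11 rose in THP-1 and 4 in KASUMI-1, with medians of 0.23 and 0.26. Of all genes 6.51% rose in THP-1 and 7.02% in KASUMI-1, with medians of -0.0091 and 0.02. By edgeR 0 fell in either line (0 and 2 were lower at an unadjusted p under 0.05, and 0 fell with DESeq2). The largest rises in THP-1 were those of PRLR, the prolactin receptor (2.15 ± 0.25, from 219 to 890 reads over both pairs), IL21R (1.58 ± 0.21), IL10RA (1.25 ± 0.19) and IFNGR1, a chain of the interferon gamma receptor (1.01 ± 0.13), with adjusted p from 9.70e-06 to 0.000175 (edgeR). IL21R and IL10RA were not called without the THP-1 72 h pair (1.32, adjusted p = 0.0767, and 1.08, adjusted p = 0.115). In KASUMI-1 PRLR had 1 read over the vehicle and 56 over the LSD1i libraries, and the ratio was 42.2 (95% counting interval 7.27 to 1696). The chemokine receptor CXCR4 (1.38 ± 0.27), IFNGR1 (0.71 ± 0.13) and IFNAR2 (0.43 ± 0.13) also rose there (adjusted p = 0.00399, 0.00232 and 0.0395, edgeR). All 3 lost the call without the KASUMI-1 72 h pair (0.48, 0.55 and 0.32, adjusted p = 0.334, 0.0805 and 0.498), and without the pair terms (adjusted p = 0.0971, 0.0847 and 0.183). CXCR4 was also lost with DESeq2 (1.42, adjusted p = 0.114), and IFNAR2 with RLE scaling (adjusted p = 0.0503), with DESeq2 and without either THP-1 pair (adjusted p = 0.0615, 0.0756 and 0.0722). IL10RA in THP-1 was not called without the pair terms (1.27, adjusted p = 0.130). The count in THP-1 was 5 without its 24 h pair and 4 without its 72 h pair, and in KASUMI-1 it was 1 without its 72 h pair, 7 (with 1 fall) without its 6 h pair and 2 with DESeq2. Without the pair terms the counts were 3 in THP-1 and 1 in KASUMI-1.

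JAK kinases, STAT factors and adapters, through which the members signal, were described by 27 genes. In KASUMI-1 5 rose and in THP-1 6, beside 7.02% and 6.51% of all genes, with medians of 0.08 and 0.05. By edgeR 0 fell in either line. At an unadjusted p under 0.05 2 were lower in each line, 1 fell in KASUMI-1 with RLE scaling, with DESeq2, without the filter on low counts or without its 6 h pair, and 2 fell in THP-1 without either KASUMI-1 pair. The adapter SLA, which lowers receptor levels at the surface, rose by 0.89 ± 0.15 in KASUMI-1 and 1.87 ± 0.14 in THP-1, the docking protein GAB2 by 0.64 ± 0.13 and 1.31 ± 0.13, and STAT6, the factor of interleukin-4, by 0.79 ± 0.13 and 0.74 ± 0.12 (edgeR adjusted p from 4.18e-08 to 0.00456). CBLB, a ubiquitin ligase, rose in KASUMI-1 (0.98 ± 0.18, adjusted p = 0.00256). STAT6 in THP-1 was not called without the 24 h pair (0.57, adjusted p = 0.124). Leaving out the 24 h pair gave a count of 2 in THP-1, and leaving out the 72 h pair a count of 3. Without the pair terms 0 rose in KASUMI-1, where SLA, GAB2, STAT6 and CBLB had adjusted p = 0.0909, 0.279, 0.130 and 0.107, and 2 rose in THP-1, where STAT6 was not called (adjusted p = 0.123).

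Of 14 STAT targets and feedback genes, 1 rose and 2 fell in KASUMI-1 and 3 rose and 1 fell in THP-1, with medians of -0.05 and -0.11. Of all genes 7.02% rose and 5.09% fell in KASUMI-1, and 6.51% rose and 2.85% fell in THP-1. SOCS2, the feedback inhibitor that STAT5 induces, went from 568 reads over the THP-1 vehicle libraries to 124 with LSD1i, and fell by -2.09 ± 0.25 (adjusted p = 1.40e-05, edgeR). In KASUMI-1 its change of 0.52 ± 0.20 passed no test (adjusted p = 0.0931), and the lines differed by -2.62 ± 0.32 (adjusted p = 1.12e-04; 0.0735 without the pair terms). KIT, too, fell in THP-1 and was not called in KASUMI-1, and a link between KIT and SOCS2 was not tested. The repressor BCL6 rose in both lines, by 1.23 ± 0.24 and 1.60 ± 0.23 (adjusted p = 0.00382 and 1.32e-04). It lost the call without the KASUMI-1 72 h pair (0.77, adjusted p = 0.184) and, in THP-1, narrowly without its 72 h pair (1.43, adjusted p = 0.0505). OSM (1.11 ± 0.26) and ID1 (1.02 ± 0.22) rose in THP-1 (adjusted p = 0.00902 and 0.00506), and neither was called without the 24 h pair (0.67 and 0.27, adjusted p = 0.502 and 0.674), nor OSM without the 72 h pair (1.44, adjusted p = 0.0559) or with DESeq2 (1.08, adjusted p = 0.149). In KASUMI-1 BCL2L1 (-0.50 ± 0.13) and MYC (-0.42 ± 0.13) fell (adjusted p = 0.0198 and 0.0428). Neither was called without the 6 h pair (adjusted p = 0.0802 and 0.142) or the 72 h pair (0.170 and 0.188), nor MYC without either THP-1 pair (0.0822 and 0.0766). Without the pair terms 0 genes of this list were called in KASUMI-1, where BCL6, BCL2L1 and MYC had adjusted p = 0.0950, 0.205 and 0.370, and OSM and ID1 were not called in THP-1 (adjusted p = 0.115 and 0.313). The 5 genes of receptor cleavage, such as ADAM17, the protease that sheds IL6R and CSF1R, had 0 calls in both lines by edgeR and DESeq2, and 0 at an unadjusted p under 0.05.

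Transcription factors linked to these receptor genes gave 20 tested genes of 23, with medians of 0.13 in KASUMI-1 and 0.06 in THP-1. Of all genes 6.51% rose in THP-1, and 7.02% rose and 5.09% fell in KASUMI-1. In THP-1 4 rose and 0 fell by edgeR (2 were lower at an unadjusted p under 0.05, and 1 fell with RLE scaling, with DESeq2, without the filter on low counts or without either KASUMI-1 pair). Among the rises were MITF, a factor of mast cells and osteoclasts (1.96 ± 0.23), KLF4, a factor of monocytes (1.61 ± 0.18), and the repressor GFI1 (0.52 ± 0.13), with edgeR adjusted p from 5.90e-06 to 0.0147. GFI1 was not called without the 24 h pair (0.37, adjusted p = 0.451) or the 72 h pair (0.64, adjusted p = 0.167), and neither GFI1 nor MITF without the pair terms (adjusted p = 0.354 and 0.0509). In KASUMI-1 GFI1B (1.73 ± 0.38), IRF8 (0.64 ± 0.18), GFI1 (0.63 ± 0.13) and RUNX1 (0.48 ± 0.13) rose, and CEBPD (-0.87 ± 0.19), CEBPE (-0.80 ± 0.15) and TAL1 (-0.59 ± 0.18) fell, with adjusted p from 0.00256 to 0.0366. RUNX1 counts there hold the intact gene and the fusion alike. None of these 7 was called without the KASUMI-1 72 h pair, where the values were 1.07, 0.74, 0.53, 0.39, -0.45, -0.57 and -0.66 with adjusted p from 0.124 to 0.387. IRF8 and TAL1 were also lost without the 6 h pair (0.54 and -0.52, adjusted p = 0.127 and 0.167), and IRF8, RUNX1 and TAL1 narrowly without the THP-1 24 h pair (adjusted p = 0.0509, 0.0525 and 0.0528). TAL1 was lost with DESeq2 (-0.62, adjusted p = 0.114), which gave GFI1B no adjusted p. Without the pair terms 0 of the 7 were called (adjusted p from 0.0850 to 0.271). The genes of PU.1 (SPI1) and of C/EBP alpha (CEBPA), the factors best known for CSF1R and CSF3R, were not called in either line.

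Some monocyte markers rose under LSD1i, as CSF1R did. Of 7 such markers 5 rose in THP-1 (CD14, LYZ, ITGAM, CD86 and CD163), beside 6.51% of all genes. In KASUMI-1 3 rose (LYZ, ITGAM and CD86), beside 7.02% of all genes, and 2 rose without the pair terms. CD68 and FCGR1A were called in neither line, nor were CD14 and CD163 in KASUMI-1. The summed level of the 7 markers was 615 and 978 CPM in THP-1 vehicle libraries and 5015 and 11257 CPM with LSD1i. In KASUMI-1 it was 52.4 and 58.5 against 176 and 453 CPM. Without LYZ, the gene of lysozyme, which made up most of it, the sums were 87.3 and 92.5 against 171 and 172 CPM in THP-1 and 20.4 and 22.8 against 37.7 and 39.9 CPM in KASUMI-1. CD163 had 0 reads in both KASUMI-1 vehicle libraries and in that of THP-1 at 72 h, and CD14 had at most 2 reads in any KASUMI-1 library. The part of these markers in the CSF1R and CSF2RA results was not tested.

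KIT and CSF3R stood beside other markers. Granulocyte precursor markers, to which CSF3R belongs by cell type, summed to 3512 and 4561 CPM in the THP-1 vehicle libraries and to 2567 and 2411 CPM with LSD1i. There 2 of 5 fell (1 without the pair terms), beside 2.85% of all genes. In KASUMI-1 these markers summed to 8954 CPM in vehicle and 9413 with LSD1i at 6 h, and to 12714 and 10339 at 72 h. There 1 of 5 fell (0 without the pair terms), beside 5.09% of all genes. Their part in the CSF3R fall was not tested. Markers of basophils and of mast cells, the latter known to keep KIT when mature, were near 0 in THP-1, with a sum of 1.24 to 1.54 CPM over 5 genes. CD34, the progenitor marker, was at 555 to 998 CPM in KASUMI-1 and 0.849 to 1.44 CPM in THP-1. In THP-1 1 of 2 tested progenitor markers fell, CD38 by -0.53 ± 0.15 (adjusted p = 0.0354, edgeR), and their median was -0.20. The progenitor markers of KASUMI-1 summed to 558 and 644 CPM in vehicle and to 632 and 1002 CPM with LSD1i, and 0 of 2 tested were called. Their part in the fall of KIT was not tested. Erythroid and megakaryocyte markers summed to at most 1.12 CPM and lymphoid markers to at most 15.5 CPM in any library.

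The genes most like each member were found among 11009 genes, by the root mean square difference of log2 CPM over the 8 libraries after centring each gene on its own mean. For KIT these were ZNF827 (0.47), ADAMTS3 (0.53) and IGSF10 (0.57), the loosest matches of any member. For CSF1R they were NEXN (0.32), ADCY7 (0.34) and RASSF2 (0.35). FLT3 had the closest ones, GSTM4 (0.11), RGS14 (0.12) and PAQR4 (0.16). CSF2RB was nearest to C7orf50, USP31 and SLC43A3 (0.18 to 0.19), CSF3R to NR6A1, INKA1 and CDH24 (0.18 to 0.20), IL3RA to SKA1, RABL3 and MORN2 (0.18 to 0.20) and IL6R to SERPINF1, ACSS3 and ZFP3 (0.18 to 0.21). The measure takes in the difference between the lines, the culture time and the response to LSD1i together, and the 8 libraries come from only 2 cell lines.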

How the data were processed

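The data were whole-number read counts per gene for 8 libraries, made with a TruSeq kit from 500 ng of total RNA each, per the labels' protocols. The authors deposited the counts without normalization in 1 table with the exon length of each gene, and per the file headers they were made with featureCounts 1.5.2 on gene models of Ensembl release 54 (NCBI build 36). The submitters' processing notes also name FastQC 0.10.0, TopHat2 2.0.10, Subread, edgeR and hg18. The counting command sets no option for strand or for reads mapping to several places, so antisense reads cannot be told apart and such multiply mapped reads were left out. The exon lengths, as deposited in the table, were used for RPKM.

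Groups came from the labels. The members and gene lists were chosen with earlier results of these data known. Names were matched to current symbols through RefSeq: 16840 were current, 3123 matched through a synonym and 13082 did not. All 111 list genes matched (KDM1A is AOF2 in the table).

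Tests were edgeR 4.0.16 quasi-likelihood F-tests in R 4.3.3 with TMM, filterByExpr at a minimum count of 10, and Benjamini-Hochberg adjustment over all genes tested at 0.05. In the fit of 8 libraries, 4 pair terms (pairs come from the line and time of the labels) stood beside an LSD1i coefficient for each line. It left 2 residual degrees of freedom (3 with a single coefficient, 2 in the vehicle fit), so it leans on the spread shared over genes (median prior degrees of freedom 15.6). SE is the size of a change divided by the square root of F. Pair ratios used a prior count of 2 and an exact conditional binomial 95% interval. The procedure was tested on simulated data with the same spread for all genes and the same change at both times of a line. That test does not cover a spread that varies by gene or a response that changes with time. The alternatives were RLE scaling, no filter on low counts, DESeq2 1.42.0, no pair terms, each pair or vehicle library left out, scaling by total counts and a prior count of 0.5. Named beside the members were KDM1A, all ligands, partner chains and close relatives, up to 4 rises and 4 falls of each other list per line by size, and the 3 genes most like each member among those whose average log2 CPM was 1 or more. A few of the genes so chosen are not reported here.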

Additional observations from a re-analysis of the deposited data

Results flagged for a closer look

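Among the genes named, 13 responded to LSD1i differently in the lines by the test of that difference (THP-1 minus KASUMI-1, edgeR, adjusted p under 0.05), and KIT was the only member among them. Of all genes 5.69% were called in that test. Genes of the larger lists were named by their calls in these same data, which favours such differences, so the count is a description only. The difference of KIT was -1.91, with a fall in 2 of 2 THP-1 pairs and log2 ratios of -0.12 and -0.28 in KASUMI-1. The GM-CSF binding chain CSF2RA differed by 1.22. Among signalling genes the differences were 0.66 for GAB2, -1.03 for CBLB and 0.98 for SLA. Among STAT targets they were -2.62 for SOCS2, 1.34 for OSM and 1.09 for ID1. Among transcription factors they were 0.92 for CEBPD, 1.17 for CEBPE, -0.81 for RUNX1, -2.53 for GFI1B and 2.22 for MITF. The SOCS2 difference kept its call without any 1 of the 4 pairs, and each of the other 12 lost it without at least 1 of them. Without the pair terms 0 of the 13 differences were called. The early times, 6 h in KASUMI-1 and 24 h in THP-1, are unlike, so line and exposure time are mixed in this test. No group held the 4 libraries needed to look for an outlying one.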

How the results depend on the processing

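The fits rest on 1 library per line, agent and time, so the 2 pairs of a line stand in for replicates and their spread also holds any change with time. A fit without 1 pair of a line takes its spread from the other line, so its calls measure no spread within the line that lost a pair. CSF1R kept its rise and its call in THP-1 and over all 4 pairs under every alternative run, and in KASUMI-1 under all but the fit without pair terms. KIT kept its fall and its call in THP-1 under every alternative run. Without pair terms (no replicate block) the members called were 0 in KASUMI-1 and 0 in the difference between the lines, and all genes called were 100 in KASUMI-1 (main 1945), 454 in THP-1 (main 1503), 22 in the difference (main 914) and 409 over all 4 pairs (main 737). DESeq2 gave 0 members in the difference, 2 over all 4 pairs and 990 genes in THP-1. Without the filter on low counts 2 members and 1382 genes were called over all 4 pairs. When 1 pair was left out at a time, the members called ranged from 1 to 3 in KASUMI-1, 2 to 3 in THP-1, 0 to 2 in the difference and 1 to 2 over all 4 pairs. All genes called then ranged from 306 to 2741 in KASUMI-1, 386 to 2211 in THP-1, 166 to 1705 in the difference and 226 to 836 over all 4 pairs. The causes were not tested.

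Signs turned only for small or poorly measured values, none of them called. Leaving out 1 pair at a time, the KASUMI-1 change ranged from -0.46 to 0.0087 for FLT3, -0.20 to 0.13 for IL6R, -0.55 to 0.53 for FLT3LG, -0.075 to 0.17 for CSF2RA, -0.15 to 1.04 for PDGFRA and -4.84 to 3.23 for PDGFRB. The THP-1 change ranged from -0.26 to 0.074 for KDM1A, -0.16 to 0.027 for KITLG and -0.020 to 0.35 for PDGFRB. The difference between the lines ranged from -0.11 to 0.27 for CSF1R, -0.26 to 0.21 for FLT3, -0.41 to 0.015 for CSF3R, -0.43 to 0.17 for IL3RA and -0.25 to 0.072 for IL6R. The vehicle difference of IL6ST ranged from -0.033 to 0.17 when 1 vehicle library was left out. The 6 h log2 ratio of CSF3R in KASUMI-1 was 0.042 with total-count scaling. Under that scaling IL3RA at 6 h in KASUMI-1 also turned, at 6.12 RPKM in vehicle and 6.24 with LSD1i. FLT3 at 72 h in KASUMI-1 (2.98 and 2.82) and CSF2RB at 24 h in THP-1 (3.66 and 3.51) turned as well. DESeq2 gave no adjusted p for FLT3LG, PDGFRA, PDGFRB, GFI1B and OSM in at least 1 comparison. Members with few reads are limited by depth: the lowest counts in a library were 64 for KIT, 74 for IL6R, 84 for CSF2RB and 87 for CSF1R.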
